A study of Mus musculus with 12 samples.

Results

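Potassium channel genes were examined in primary brain cultures of *Myt1l* (+/−) and (+/+) mice. The group held every gene named by the *Kcn* root with a subfamily letter code and a number, apart from 1 gene, and was chosen by name alone, without reference to any measured value. It numbered 91 of the 55397 genes counted, of which 80 reached 0.5 CPM (counts scaled to the total of the animal) in at least 1 animal and are described here. A further 11 genes stayed at or below 0.49 CPM in every animal, and 1 of these, *Kcnk16*, had no count at all. The low-count filter of the test kept 82 of the 91 genes, among them all 80 described.

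The cultures came from newborn (P0) pups, 3 (+/−) animals (505, 506 and 508) and 3 (+/+) animals (510, 511 and 513), each with 2 RNA-sequencing libraries whose counts were summed, so that n = 3 animals per genotype throughout. The (+/−) pups carried a germline 7 bp frameshift deletion in exon 6 of 1 *Myt1l* allele, made by CRISPR in zygotes, and the (+/+) pups carried none. Pups of both genotypes were labelled as male C57BL/6J, and all cultures received 2 µM Ara-C, which kills dividing cells. The labels name cortex as the tissue, while the study prepared cultures from either cortex or hippocampus, sequenced them at DIV11 and bred its founders to C57BL/6N mice. Values are listed below in the order 505, 506, 508 for (+/−) and 510, 511, 513 for (+/+).

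*Myt1l* itself was at 89.0, 146 and 165 CPM in (+/−) and at 119, 147 and 109 CPM in (+/+) cultures, with overlapping groups (log2 fold change 0.09 ± 0.22 (SE), edgeR adjusted p = 0.81). The study found that its mutant *Myt1l* transcript escaped nonsense-mediated decay, so these counts do not test the genotype labels. Animal 511, labelled male, had 418 CPM of *Xist*, against 0.22 CPM or less in the other animals. Neuron markers summed to 2850, 4914 and 5395 CPM in (+/−) and to 5761, 6333 and 5476 CPM in (+/+) cultures, and astrocyte markers to between 8520 and 12950 CPM, so both cell types were present in every culture.

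Potassium channels let potassium leave or enter cells along its gradient and thereby set the resting potential, end action potentials and shape firing. Voltage-gated (Kv) channels open upon depolarisation and are assembled from *Kcna* to *Kcnd*, *Kcnq* and *Kcnh* subunits, which silent and auxiliary subunits modify. Calcium- and sodium-activated channels couple firing to ion entry, inward rectifiers (*Kcnj*) hold the resting potential of neurons and buffer potassium in astrocytes, and K2P channels (*Kcnk*) carry background current. Such cultures hold neurons beside glia, and each of these cell types uses its own set of channels.

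Per kb of exon length, *Kcnj10*, the inward rectifier of astrocytes, had the highest level of all potassium channel genes, with 104 CPM per kb on average over the 6 animals and a range of 51.1 to 149. *Kcnk1*, a K2P subunit, followed with 51.8 CPM per kb (44.8 to 62.8), and both ranges overlapped. *Kcnj4*, a strong inward rectifier of forebrain neurons, came next with 26.5 CPM per kb (16.8 to 33.9), below every value of *Kcnk1*.

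*Kcnip2* (20.9 CPM per kb), *Kcnab2* (17.2), *Kcna6* (13.8), *Kcnq5* (11.2), *Kcnip3* (11.2), *Kcnk2* (10.6) and *Kcnj3* (10.1) were among the others above 10 CPM per kb, and the ranges of neighbours in this order overlapped. Of the other 69 described genes, 45 lay between 1 and 10 CPM per kb and 24 below 1. The genes at the top of the order thus belonged to 5 of the 8 classes described below, and KCNH genes, silent subunits and calcium- and sodium-activated channels were not among them.

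**Figure D1:**
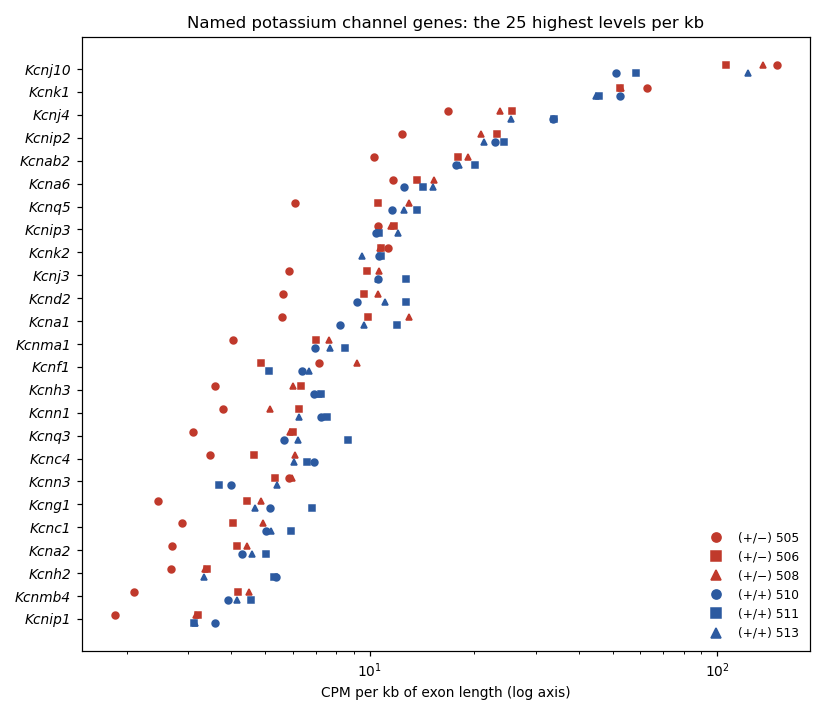
Level of the 25 genes with the highest mean among the potassium channel genes named in the text, in CPM per kb of exon length on a log axis. Each point is 1 animal, red for (+/−) and blue for (+/+), and *Kcnj10* ranges from 51.1 to 149 while animal 505 lies lowest for most of the neuronal genes below it.

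To ask how the loss of 1 *Myt1l* allele bears on these genes, the 3 (+/−) animals were compared with the 3 (+/+) animals in one fit over all 18264 genes tested, with an adjusted p below 0.1 as the threshold. No potassium channel gene passed it with edgeR, and the smallest adjusted p was 0.166. None of the 18264 genes passed either, 0% in either direction. DESeq2 on the same 6 animals called 5 potassium channel genes higher and 8 lower in (+/−) cultures, where it called 7.42% of all genes higher and 4.33% lower. At an unadjusted edgeR p below 0.05, 10 of the 80 genes were higher and 13 lower, beside 13.2% and 9.11% of all genes. The share of genes on the higher side was thus near that of all genes, and on the lower side it was above. These counts moved with the animals: they were 6 and 8 without 505 (8.32% and 6.55% of all genes), 6 and 5 without 510 (6.7% and 3.5%), and 4 and 5 without 511 (7.02% and 3.03%), and the lower count was 23 without 508 (10.4%). A DESeq2 fit with genetic sex as a covariate called 0 potassium channel genes, where it called 1.44% of all genes higher and 0.222% lower. At an unadjusted p below 0.05 it had 5 higher and 6 lower. Beside these stand 4.12% and 1.89% of the 32322 genes it fitted, a wider base that includes low-count genes. Since 511 was the 1 animal with *Xist*, the sex term takes up that animal: edgeR fold changes with the term and without 511 differed by at most 0.002 in the 80 genes.

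Of the 80 fold changes, 55 were negative and 25 positive, and their median was −0.27 on the log2 scale, beside 0.0031 over all genes tested. In 13 genes every (+/−) animal lay below every (+/+) animal and in 7 genes above, beside 13.5% and 15.5% of all genes. The negative values were spread over the voltage-gated, silent subunit, KCNQ, KCNH, auxiliary and calcium- or sodium-activated classes. By contrast, the inward rectifiers (median 0.0018) and the K2P channels (median 0.0063) were split in direction. The sum over all potassium channel genes was 2399, 2739 and 3084 CPM in (+/−) and 2546, 2880 and 2983 CPM in (+/+) cultures, and the groups overlapped.

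**Figure D2:**
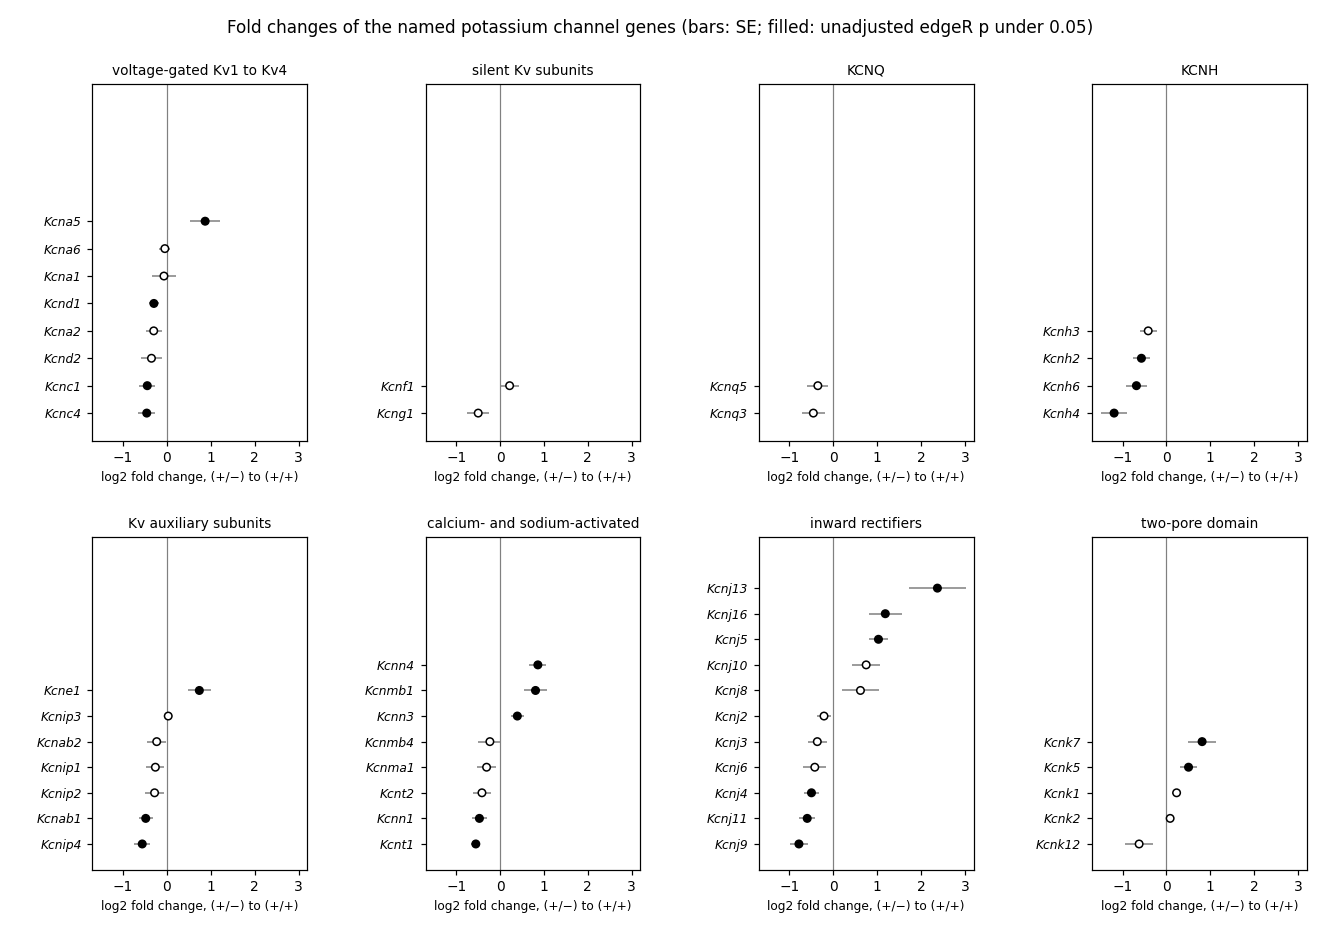
Log2 fold change, (+/−) to (+/+), of the potassium channel genes named in the text, by class, with bars for the SE of the edgeR fit. Filled points have an unadjusted p below 0.05, 10 on the higher and 13 on the lower side, and the inward rectifiers span the widest range, from −0.78 for *Kcnj9* to 2.37 for *Kcnj13*.

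The 3 (+/−) animals were unlike each other. The median deviation of the 80 genes from the (+/+) mean was −0.69 in animal 505, −0.15 in 506 and −0.04 in 508 on the log2 scale, and −0.06, 0.07 and −0.05 in animals 510, 511 and 513. Animal 505 had the lowest level of all 6 animals in 52 of the 80 genes, and 508 lay among the (+/+) animals. Without 505 the median fold change of the 80 genes was −0.09, and DESeq2 and edgeR values of single genes below are given with all 6 animals unless stated. Animal 505 also had the lowest neuron marker sum (2850 CPM) and the highest sum of each non-neuronal marker list. Among these were choroid plexus (1811 CPM), microglia and macrophage (183 CPM) and pericyte and smooth muscle markers (1067 CPM). For astrocyte markers it was barely above 513 (12950 against 12910 CPM). The part of these cell types in the channel values was not tested. In bulk RNA, fewer cells of a type and less RNA per cell cannot be told apart.

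On the (+/+) side, animal 513 lay nearest to the (+/−) animals for several glial genes. It had 6156 CPM of *Gfap*, an astrocyte filament gene, against 2769 and 3233 CPM in 510 and 511 and 5799 to 6079 CPM in (+/−) animals. Without 513, 8 potassium channel genes passed the adjusted threshold as higher and 9 as lower with edgeR, where 12.3% of all genes were higher and 5.95% lower.

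**Figure D3:**
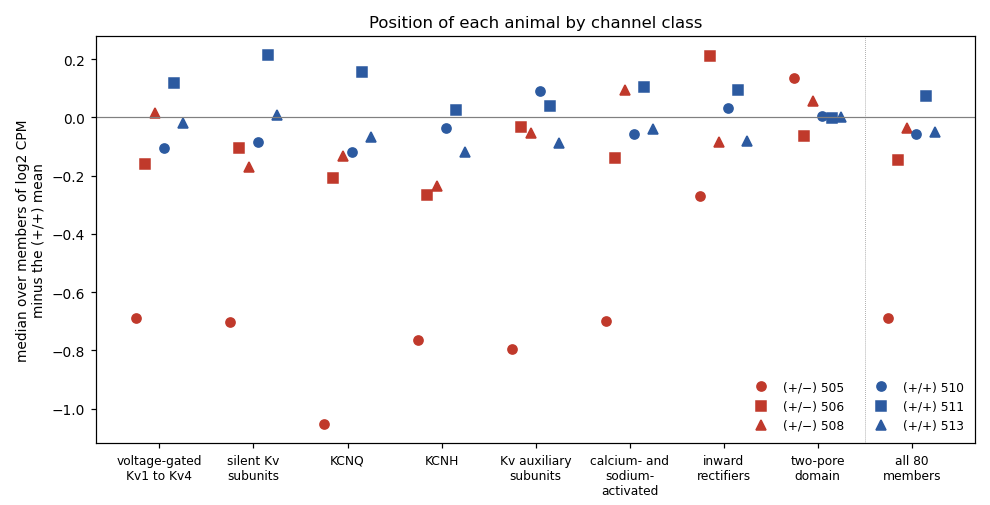
Median over the members of each class of log2 CPM minus the (+/+) mean, 1 point per animal. Animal 505 lies at −0.69 over all 80 genes and lowest in 7 of the 8 classes, while the other 5 animals lie between −0.15 and 0.07.

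Among the Kv1 to Kv4 genes, 15 of 17 were described, with 12 negative and 3 positive fold changes (median −0.24). *Kcnc1*, a fast delayed rectifier of fast-spiking neurons, was at 27.3, 38.3 and 46.5 CPM in (+/−) and at 47.5, 56.3 and 49.2 CPM in (+/+) cultures. The groups did not overlap (log2 fold change −0.45 ± 0.18, edgeR adjusted p = 0.21). *Kcnd1*, an A-type channel, was likewise below in every (+/−) animal (−0.30 ± 0.12), and *Kcnc4* overlapped at 508 (−0.46 ± 0.19).

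*Kcna2*, an axonal channel, was at 32.1, 49.6 and 52.8 CPM against 51.2, 59.9 and 54.7 CPM, with 508 above 510. *Kcna1*, its partner in axons, was at 26.8, 47.2 and 62.1 CPM against 39.3, 57.2 and 46.1 CPM, and the (+/−) animals spanned the whole (+/+) range (−0.07 ± 0.28). Its sign turned to 0.20 without 505.

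*Kcnd2*, the A-type channel of dendrites, was at 29.0, 49.6 and 54.6 CPM against 47.4, 65.6 and 57.1 CPM, with overlap (−0.35 ± 0.23). *Kcna6* had the highest mean CPM of the class, with 69.3, 81.3 and 91.1 CPM against 74.9, 84.8 and 90.3 CPM. The groups covered the same range (−0.05 ± 0.12). The largest positive value was that of *Kcna5*, with 3.0, 1.88 and 2.56 CPM in (+/−) and 1.13, 0.89 and 2.06 CPM in (+/+) cultures, where 513 lay above 506 (0.87 ± 0.34). The other 7 genes of the class overlapped, with fold changes from −0.38 to 0.10.

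The 9 described silent subunits, which do not form channels alone and tune other Kv channels, had a median of −0.34, with 6 negative and 3 positive values and none at an unadjusted p below 0.05. *Kcnf1*, the most abundant, was at 34.2, 23.4 and 44.0 CPM against 30.6, 24.6 and 32.1 CPM, so that (+/−) animals lay at both ends of the order. *Kcng1* had the lowest fold change (−0.50 ± 0.26), and the other 7 ran from −0.47 to 0.18 with overlapping groups.

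All 4 described KCNQ genes, whose products carry the M-current that restrains repetitive firing, had negative values, and none was at an unadjusted p below 0.05. *Kcnq3* had 45.7, 88.3 and 86.6 CPM in (+/−) and 83.5, 127 and 91.7 CPM in (+/+) cultures, with 505 far below the others and 506 and 508 inside the (+/+) range (−0.45 ± 0.26). *Kcnq5* had 47.0, 81.5 and 99.6 CPM against 89.2, 105 and 96.4 CPM.

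The KCNH genes, which include the ERG, ELK and EAG channels, stood lowest by median, and all 7 described members were negative. Their summed level was 63.4, 95.7 and 98.8 CPM in (+/−) and 117, 120 and 106 CPM in (+/+) cultures, without overlap. *Kcnh4*, an ELK channel on chr11:100740376-100759942, was at 0.507, 0.531 and 0.934 CPM against 1.84, 1.33 and 1.31 CPM. Every (+/−) animal was below every (+/+) animal (log2 fold change −1.19 ± 0.30, edgeR adjusted p = 0.17, DESeq2 adjusted p = 0.022), on 295 counts in total.

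*Kcnh2*, the ERG channel gene best known from cardiac repolarisation, was at 13.0, 16.5 and 16.3 CPM against 26.1, 25.8 and 16.2 CPM. Animal 513 lay among the (+/−) animals while 510 and 511 lay well above (−0.57 ± 0.20, edgeR adjusted p = 0.18, DESeq2 adjusted p = 0.076). *Kcnh6*, another ERG gene, was low throughout and separated the groups, with at most 0.773 CPM in (+/−) and at least 0.98 CPM in (+/+) animals (−0.68 ± 0.25). *Kcnh3*, the most abundant of the class, had 20.6, 36.6 and 34.7 CPM against 39.9, 41.6 and 41.1 CPM, also without overlap (−0.42 ± 0.20). The other 3 overlapped, from −0.39 to −0.03.

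Among the auxiliary subunits of Kv channels, 9 of 10 were described (median −0.26). *Kcnip4*, a calcium-binding partner of A-type channels, was at 6.21, 9.49 and 8.97 CPM in (+/−) and at 13.5, 12.4 and 10.6 CPM in (+/+) cultures. The groups were separate (−0.56 ± 0.18, edgeR adjusted p = 0.17, DESeq2 adjusted p = 0.061). *Kcnab1*, a cytoplasmic beta subunit of *Kcna* channels, was at 13.4, 18.1 and 18.9 CPM against 26.3, 24.7 and 19.6 CPM. It too was lower in every (+/−) animal, with 508 and 513 close together (−0.48 ± 0.16, edgeR adjusted p = 0.18, DESeq2 adjusted p = 0.084).

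*Kcnab2*, the most abundant auxiliary subunit, had 71.7, 126 and 134 CPM against 124, 140 and 126 CPM, with 505 alone below the (+/+) range (−0.23 ± 0.22). *Kcnip3*, also known as calsenilin or DREAM, had 37.4, 41.7 and 40.8 CPM against 37.0, 37.7 and 42.9 CPM. Its fold change was 0.03 ± 0.09, the interval of 1 SE spanning 0. *Kcne1*, a small membrane subunit of epithelial KCNQ channels, was at 0.837, 0.676 and 0.959 CPM against 0.538, 0.401 and 0.538 CPM, higher in every (+/−) animal at a level near the description limit (0.74 ± 0.26, edgeR adjusted p = 0.19). The other 4 ran from −0.41, in a gene without overlap, to 0.66.

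The calcium- and sodium-activated class held both directions. *Kcnt1*, a sodium-activated channel on chr2:25863734-25918273, had the smallest p of all potassium channel genes. It was at 13.7, 16.5 and 15.4 CPM in (+/−) and at 21.4, 23.9 and 21.7 CPM in (+/+) cultures, with tight groups that did not overlap. The log2 fold change was −0.55 ± 0.11 (edgeR adjusted p = 0.17, DESeq2 adjusted p = 0.0026), and the exact two-sided permutation test gave p = 0.1, the smallest possible with 3 animals against 3. Its relative *Kcnt2* overlapped (−0.41 ± 0.21).

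*Kcnma1*, the large-conductance calcium-activated channel, was at 68.6, 119 and 130 CPM against 118, 144 and 130 CPM. Animal 505 was low and the others shared a range (−0.31 ± 0.22). *Kcnmb4*, its neuronal beta subunit, behaved alike by animal, with 6.96, 13.9 and 14.9 CPM against 13.0, 15.2 and 13.8 CPM (−0.23 ± 0.26), and turned to 0.04 without 505. *Kcnmb1*, the beta subunit of smooth muscle, was at 6.08, 3.91 and 4.16 CPM against 3.59, 2.18 and 2.29 CPM, higher in every (+/−) animal (0.81 ± 0.26, edgeR adjusted p = 0.17, DESeq2 adjusted p = 0.057). The summed pericyte and smooth muscle markers overlapped between genotypes, with 646 to 1067 CPM in (+/−) and 596 to 773 CPM in (+/+) cultures, and 0 of 7 were at 0. Per 1000 CPM of these markers *Kcnmb1* was at 5.70, 5.14 and 6.43 CPM in (+/−) and at 4.65, 3.66 and 3.63 CPM in (+/+) cultures, still without overlap. *Kcnmb1* lies inside *Kcnip1* on the opposite strand, and *Kcnip1* itself had −0.26 ± 0.20.

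The small-conductance *Kcnn* channels, which produce the afterhyperpolarisation, split. *Kcnn1* was at 17.4, 28.8 and 23.7 CPM against 33.3, 34.7 and 28.8 CPM, with 506 just below 513 (−0.47 ± 0.18). *Kcnn3* was at 61.4, 56.0 and 62.3 CPM against 41.7, 38.5 and 56.7 CPM, where 513 lay inside the (+/−) range (0.39 ± 0.15, edgeR adjusted p = 0.19). *Kcnn4*, the intermediate-conductance channel known from blood, microglial and epithelial cells, was at 4.10, 2.90 and 3.74 CPM against 2.00, 1.74 and 2.18 CPM. All (+/−) animals lay above all (+/+) animals (0.86 ± 0.19, edgeR adjusted p = 0.17, DESeq2 adjusted p = 0.0086). The other 3 genes of the class ran from −0.41 to −0.14.

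The 14 described inward rectifiers had 7 positive and 7 negative values, and these are given below by the cells the genes are best known from. *Kcnj10* was at 803, 572 and 732 CPM in (+/−) and at 276, 316 and 661 CPM in (+/+) cultures. Animals 510 and 511 were low, and 513 lay between the (+/−) animals (0.75 ± 0.32, edgeR adjusted p = 0.22). *Kcnj10* made up 58.8% to 86.2% of the summed inward rectifier level of an animal. *Kcnj16*, which forms channels with *Kcnj10* in glia, showed the same order of (+/+) animals, with 16.5, 9.87 and 15.8 CPM against 3.80, 4.47 and 10.3 CPM, and 513 above 506 (1.19 ± 0.38, edgeR adjusted p = 0.17, DESeq2 adjusted p = 0.026).

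Next to *Kcnj10* (chr1:172341210-172374085) and 11892 bp away lies *Kcnj9* (chr1:172320501-172329318, opposite strand), a subunit of the G-protein-gated channels of neurons. It was at 6.68, 9.10 and 10.5 CPM against 15.9, 17.1 and 12.2 CPM, lower in every (+/−) animal (−0.78 ± 0.20, edgeR adjusted p = 0.17, DESeq2 adjusted p = 0.011). The neighbouring genes thus had fold changes of opposite sign. *Kcnj16* and *Kcnj2*, 38196 bp apart on chromosome 11, also differed in sign, with 1.19 and −0.21 ± 0.15.

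The other G-protein-gated subunits of neurons, *Kcnj3* (−0.36 ± 0.21) and *Kcnj6* (−0.42 ± 0.26), were negative with overlapping groups. *Kcnj5*, a G-protein-gated subunit best known from heart, had instead 3.22, 2.10 and 2.78 CPM against 1.29, 1.16 and 1.52 CPM. It was higher in every (+/−) animal (1.03 ± 0.22, edgeR adjusted p = 0.17, DESeq2 adjusted p = 0.0063).

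*Kcnj4* was at 36.1, 55.1 and 50.9 CPM against 72.7, 72.9 and 54.8 CPM, with 506 level with 513 (−0.50 ± 0.18, edgeR adjusted p = 0.19, DESeq2 adjusted p = 0.095). *Kcnj11*, the pore of ATP-sensitive channels, was at 6.21, 9.49 and 9.39 CPM against 13.4, 13.7 and 10.8 CPM, without overlap (−0.59 ± 0.19, edgeR adjusted p = 0.17, DESeq2 adjusted p = 0.056). *Kcnj8*, the ATP-sensitive pore of pericytes, was low, with 1.15, 1.25 and 0.836 CPM against 0.442, 0.467 and 1.22 CPM, and 513 was again among the (+/−) animals (0.62 ± 0.42). The other 3 inward rectifiers overlapped, from −0.44 to 0.62.

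*Kcnj13*, an inward rectifier of the choroid plexus and other epithelia (chr1:87386363-87394729), had the largest fold change of all potassium channel genes. It was at 7.56, 2.27 and 1.94 CPM in (+/−) and at 1.09, 0.868 and 0.281 CPM in (+/+) cultures, so the groups were separate and 505 was far above the rest. The log2 fold change was 2.37 ± 0.64 (edgeR adjusted p = 0.17, DESeq2 adjusted p = 0.0030). The gene lies within *Gigyf2* on the opposite strand, and *Gigyf2* had a log2 fold change of −0.03.

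The 11 described K2P genes had a median of 0.0063, with 6 positive and 5 negative values. *Kcnk1* was at 140, 117 and 118 CPM against 118, 102 and 100 CPM, with 510 level with 506 and 508 (0.23 ± 0.11). *Kcnk2*, a mechanically gated channel, was at 55.9, 53.1 and 52.9 CPM against 52.6, 53.1 and 47.0 CPM, one of the most even genes of the group (0.08 ± 0.08). *Kcnk5*, an acid-sensitive channel of epithelia, was at 3.42, 2.78 and 2.36 CPM against 2.02, 2.00 and 2.01 CPM, higher in every (+/−) animal (0.50 ± 0.19, edgeR adjusted p = 0.19). *Kcnk7* did the same near the description limit (0.81 ± 0.32), and *Kcnk12* had the lowest value of the class (−0.62 ± 0.32). The other 6 overlapped, from −0.46 to 0.46.

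**Figure D4:**
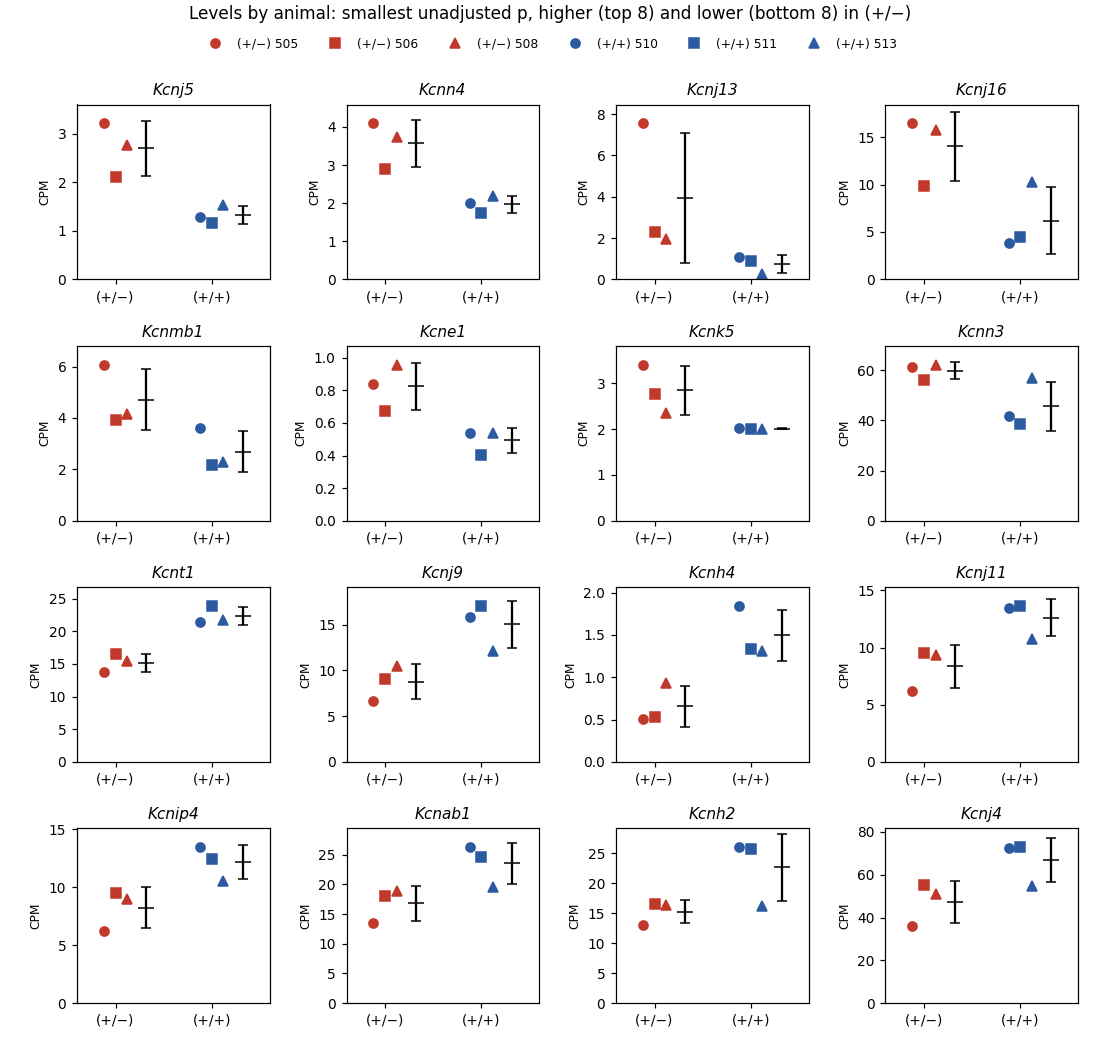
CPM in each animal for the 8 genes with the smallest unadjusted p on the higher side (2 upper rows) and the 8 on the lower side (2 lower rows), with mean and SD beside the points (n = 3 animals). *Kcnt1* shows the tightest separation, 13.7 to 16.5 against 21.4 to 23.9 CPM, and the (+/+) animal 513 lies at or near the (+/−) animals for *Kcnj16*, *Kcnn3*, *Kcnh2* and *Kcnj4*.

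Marker levels of several cell types in the same cultures stand here beside the channel genes. No marker passed the adjusted threshold with edgeR, where none of the genes tested did. DESeq2 without the sex term called 7 of 7 ependymal and 7 of 9 choroid plexus markers higher. It also called 3 of 9 microglia and macrophage markers and 1 of 9 astrocyte markers higher, and 2 of 12 neuron markers lower. Beside these counts stand 7.42% of all genes called higher and 4.33% called lower. All 12 neuron markers had negative fold changes, and their sum was lower in every (+/−) animal. All 7 ependymal markers were positive, with sums of 880 to 1025 CPM in (+/−) and 490 to 710 CPM in (+/+) cultures. Of the 9 choroid plexus markers 8 were positive, with sums of 1811, 859 and 489 CPM against 348, 223 and 138 CPM, and none was at 0. The 9 microglia and macrophage markers were all positive, with sums of 80.1 to 183 CPM against 45.8 to 82.1 CPM, which overlapped. Astrocyte markers (7 of 9 positive) summed to 12950, 12290 and 11760 CPM against 8565, 8520 and 12910 CPM, and 513 stood with the (+/−) animals as it did for *Kcnj10* and *Kcnj16*.

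Given per 1000 CPM of summed neuron markers, the KCNQ genes were at 84.5, 86.3 and 87.3 CPM in (+/−) and at 78.6, 90.9 and 86.9 CPM in (+/+) cultures. Animal 505 did not stand apart for this class, and the groups overlapped, as they did for the KCNH genes and the inward rectifiers. In the other 5 classes every (+/−) animal was higher on this scale, with 505 highest. The Kv1 to Kv4 genes had 142.5, 108.6 and 112.1 against 94.2, 99.7 and 108.5 CPM per 1000. The margin was narrow there and in the silent subunits (20.27 in 506 against 20.11 in 513). *Kcnt1*, with 4.82, 3.36 and 2.85 against 3.71, 3.77 and 3.96 CPM per 1000, overlapped too, now with 505 as the highest animal.

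*Kcnh4* was the 1 gene of the 80 that was lower in every (+/−) animal on this scale, with 0.178, 0.108 and 0.173 against 0.32, 0.211 and 0.239 CPM per 1000. Of all genes tested, 0.772% were. In 20 of the 80 genes every (+/−) animal was higher, beside 35.6% of all genes. These included *Kcnj5*, *Kcnj13*, *Kcnj16*, *Kcnn3*, *Kcnn4*, *Kcnmb1* and *Kcnk5*, but also *Kcna1*, *Kcna6*, *Kcnma1* and *Kcnab2*. The scale divides by a sum that was itself lower in (+/−) cultures, so any gene that fell less than this sum comes out higher.

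*Kcnj13* per 1000 CPM of choroid plexus markers was at 4.17, 2.64 and 3.97 in (+/−) and at 3.15, 3.89 and 2.04 CPM in (+/+) cultures, and the groups overlapped. *Kcnn4* per 1000 CPM of microglia and macrophage markers overlapped as well, with 22.4, 36.2 and 44.8 against 41.6, 21.2 and 47.5 CPM. *Kcnj10* per 1000 CPM of astrocyte markers was at 62.0, 46.5 and 62.3 against 32.3, 37.1 and 51.2 CPM, with 513 above 506. *Kcnj16* on that scale did not overlap, by a narrow margin, with 1.27, 0.803 and 1.34 against 0.444, 0.525 and 0.796 CPM. Per 1000 CPM of ependymal markers, however, *Kcnj16* overlapped, with 16.1, 11.2 and 16.6 against 6.63, 9.13 and 14.5 CPM. *Kcnj10* overlapped on the ependymal scale too, and *Kcnj5* did not (3.14, 2.39 and 2.93 against 2.24, 2.36 and 2.14 CPM). Whether any cell type accounts for a channel value was not tested.

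**Figure D5:**
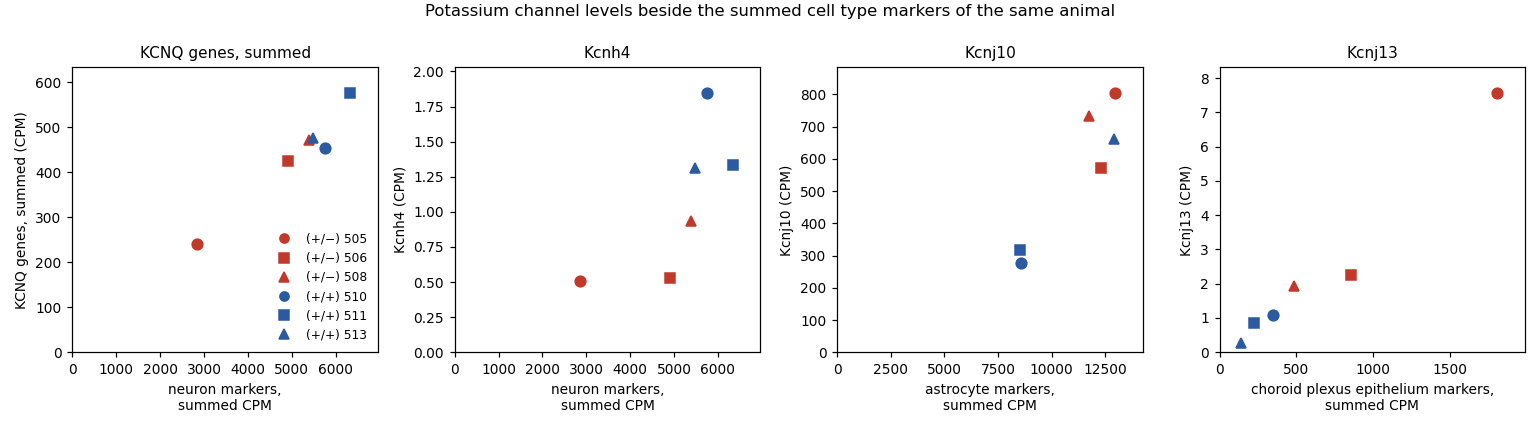
Summed KCNQ genes, *Kcnh4*, *Kcnj10* and *Kcnj13* (CPM) against the summed markers of neurons, astrocytes or choroid plexus epithelium (CPM) in the same animal, 1 point per animal. Animal 505 is lowest for neuron markers and KCNQ genes (241 CPM) and highest for choroid plexus markers and *Kcnj13* (7.56 CPM).

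MYT1L binds DNA at the core AAAGTT, so the 250 bases before each RefSeq gene start (build GRCm38.p6) were searched for these letters on both strands. Of the 80 described genes 57 had such an entry, and 5 of the 57 (8.8%) held the core, beside 11.9% of the tested genes with an entry. The 5 promoters are printed because they are the members with a match, 5′ to 3′ on the gene's strand and with the matches in capitals (AAAGTT or its reverse complement AACTTT):
Kcnj16, chr11:111023610-111023859, plus strand: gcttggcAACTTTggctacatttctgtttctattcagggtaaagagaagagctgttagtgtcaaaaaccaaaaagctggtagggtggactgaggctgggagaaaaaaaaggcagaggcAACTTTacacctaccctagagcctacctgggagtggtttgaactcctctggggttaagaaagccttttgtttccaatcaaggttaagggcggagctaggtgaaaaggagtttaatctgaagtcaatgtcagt
Kcnj8, chr6:142571615-142571864, minus strand: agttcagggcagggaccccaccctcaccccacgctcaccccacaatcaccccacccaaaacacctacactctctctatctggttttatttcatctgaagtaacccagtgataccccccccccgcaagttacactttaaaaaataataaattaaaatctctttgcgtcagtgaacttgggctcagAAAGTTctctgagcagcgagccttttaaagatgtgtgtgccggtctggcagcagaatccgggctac
Kcnj4, chr15:79505242-79505491, minus strand: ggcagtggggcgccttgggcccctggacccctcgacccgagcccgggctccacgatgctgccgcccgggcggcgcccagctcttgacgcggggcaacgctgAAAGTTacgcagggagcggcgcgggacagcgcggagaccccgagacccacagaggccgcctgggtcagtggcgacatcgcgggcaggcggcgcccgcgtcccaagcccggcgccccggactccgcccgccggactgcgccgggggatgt
Kcnab1, chr3:64948962-64949211, plus strand: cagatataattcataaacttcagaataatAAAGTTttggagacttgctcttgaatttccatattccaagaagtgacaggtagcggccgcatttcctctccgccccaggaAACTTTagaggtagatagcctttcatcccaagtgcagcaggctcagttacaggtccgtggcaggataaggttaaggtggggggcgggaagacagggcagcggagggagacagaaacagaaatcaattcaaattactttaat
Kcnk2, chr1:189402274-189402523, minus strand: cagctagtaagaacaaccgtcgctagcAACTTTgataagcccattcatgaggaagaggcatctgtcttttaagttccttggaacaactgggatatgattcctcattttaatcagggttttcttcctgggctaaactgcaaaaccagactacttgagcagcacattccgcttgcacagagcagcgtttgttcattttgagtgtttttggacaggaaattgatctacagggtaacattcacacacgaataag

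Counted to the first base of the core, the matches lie 243 and 132 bases before the start of the printed entry in *Kcnj16*. They lie 221 and 141 bases before it in *Kcnab1*, 149 in *Kcnj4*, 66 in *Kcnj8* and 223 in *Kcnk2*. A gene was taken to hold the core if any of its RefSeq starts did. *Kcnj16*, *Kcnab1* and *Kcnk2* have further starts without a match, and the matched start of *Kcnj16* lies inside the gene. The fold changes of these genes ran from −0.50 for *Kcnj4* and −0.48 for *Kcnab1* over 0.08 for *Kcnk2* and 0.62 for *Kcnj8* to 1.19 for *Kcnj16*, so genes with a match lay on either side. No binding was measured in these cultures, and *Kcnj13*, *Kcnj9* and *Kcnh4* had no match in this window.

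Genes whose products work with potassium channels were lower as well by sign. Of 21 partner genes (auxiliary proteins, scaffolds, sulfonylurea receptors and *Hcn* channels) 19 were tested, with 18 negative and 1 positive value and a median of −0.40. None passed the adjusted threshold with edgeR, DESeq2 called 4 lower (4.33% of all genes), and 7 were lower at an unadjusted p below 0.05 (9.11% of all genes). The last count was 3 without 506 (8.24%), 12 without 508 (10.4%), 4 without 510 (3.5%) and 2 without 511 (3.03%). *Hcn2*, a pacemaker channel opened by hyperpolarisation, was at 38.7, 61.5 and 57.3 CPM in (+/−) and at 90.4, 93.2 and 67.1 CPM in (+/+) cultures, without overlap (−0.67 ± 0.20, edgeR adjusted p = 0.17). *Hcn3* (−0.73 ± 0.23) and *Hcn4* (−0.50 ± 0.17) were also lower in every (+/−) animal. *Abcc8*, the sulfonylurea receptor that joins *Kcnj11* in ATP-sensitive channels, had 8.72, 13.7 and 14.4 CPM against 17.4, 21.9 and 15.7 CPM (−0.58 ± 0.21), separate like *Kcnj11* itself.

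Of 13 genes for the sodium pump and potassium transport, 5 were positive and 8 negative (median −0.21). EdgeR called 0, with 2 lower at an unadjusted p below 0.05 (9.11% of all genes). DESeq2 called 1 lower (4.33% of all genes). *Fxyd6*, a regulator of the pump, was at 53.2, 75.4 and 73.1 CPM against 104, 94.8 and 92.0 CPM, lower in every (+/−) animal (−0.53 ± 0.14, edgeR adjusted p = 0.17). *Slc12a5*, the potassium-chloride cotransporter of mature neurons, was at 116, 216 and 226 CPM against 280, 342 and 238 CPM, also without overlap (−0.62 ± 0.26). *Atp1b1*, a subunit of the pump, overlapped (−0.36 ± 0.16).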

How the data were processed

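RNA of 6 cultures (3 *Myt1l* (+/−), 3 (+/+)) was analysed from 12 libraries. What the authors deposited were unnormalised counts of reads per gene, 1 column for each library, from paired-end reads of strand-marked libraries mapped to mm10 with STAR. No source used here names the counting tool. Their normalised counts, and their table of fold changes and p-values, were not used. Groups, animals and library numbers came from the labels. Depth was 20181477 to 26594444 counts per library, and 40642699 to 52833161 per animal. Between the libraries of 1 animal, chi-square per degree of freedom was 1.26 to 1.32, near sampling noise, and what separates them is not stated. Library numbers did not pair across animals (correlation of library differences −0.037 to 0.012).

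Counts were summed per animal and 18264 of 55397 genes were fitted with edgeR 4.0.16 in R 4.3.3 (quasi-likelihood test, filterByExpr by genotype, TMM, no covariate), with Benjamini-Hochberg adjustment over every gene tested and 0.1 as threshold. The study's own design, DESeq2 with genetic sex, was an alternative (DESeq2 1.42.0), as was limma 3.58.1. CPM used the TMM-scaled library size, levels per kb the exon lengths in the count table, and positions are those of that table (mm10). Where genes overlap on opposite strands, reads may have been shared, since the strand setting of the counting is unknown. Promoters were read from RefSeq entries. The tests were checked on simulated data.

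Values by animal are given for the 8 genes with the smallest p in each direction, the most abundant gene of each class, a fixed list, and some further members named within their subfamily. Of each partner list up to 4 genes are named. Members and lists were chosen with earlier results of these data known. One gene of the name pattern is not analysed, and a few genes these rules would name are not reported here.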

Additional observations from a re-analysis of the deposited data

How the results depend on the processing

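At an adjusted p below 0.1, edgeR called 0 potassium channel genes with DESeq2's size factors, with sex, with a 1 CPM filter or with either library alone, and DESeq2 with sex also called 0. DESeq2 on 6 animals called 5 higher and 8 lower, and 4 partner genes lower. Without a low-count filter edgeR called 5 higher and 5 lower (3.16% and 1.4% of all genes), with 23 lower at an unadjusted p below 0.05 (7.44%). Limma voom on 12 libraries, with the animal as a random effect because both libraries of an animal are 1 replicate, gave smaller SEs for some genes and is no added replication. With the library number as replicate block it called 6 higher and 18 lower of 79 (11.3% and 10.4% of all genes; 28 lower unadjusted, 14.7%), and without the block 7 and 18 (12.4% and 11.6%; 29 unadjusted, 15.3%). The library numbers pair nothing across animals. With sex, the unadjusted counts were 5 higher and 6 lower in DESeq2 (4.12% and 1.89% of 32322 genes, low-count ones included). In edgeR with sex they were 3 and 5 (6.92% and 3.06% of 18264 genes).

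Leaving out 1 animal at a time gave 0 to 8 genes called higher and 0 to 9 lower. The calls came without 513 alone, where 12.3% of all genes were called higher and 5.95% lower. It gave 4 to 12 higher and 5 to 23 lower unadjusted, and a median of −0.39 to −0.09. In the same fits 6.7% to 18.1% of all genes were higher and 3.03% to 12.5% lower unadjusted. For partner genes, beside the same shares of all genes, it gave 0 to 3 called lower, 2 to 12 lower unadjusted and a median of −0.53 to −0.23.

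Of 54 named genes, 5 changed sign somewhere. *Kcna1* was at 0.079 with sex in DESeq2 and 0.086 in edgeR, and at −0.37 to 0.20 with 1 animal left out. *Kcnip3* was at −0.00735 with sex in DESeq2, at −0.025 in library 2 alone and at −0.022 to 0.088 with 1 animal left out. Left-out ranges were −0.15 to 0.0498 for *Kcna6*, −0.024 to 0.41 for *Kcnf1* and −0.43 to 0.0404 for *Kcnmb4*. Why these values moved was not tested. Genes near 0.5 CPM rest on few counts (174 for *Kcne1* in all), and 3 animals per genotype limit every comparison.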
